A study of Mus musculus with 34 samples.

Results

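A set of 674 open-chromatin positions was called in all 3 day-7 lists from mouse embryonic fibroblasts (MEF) and in neither day-0 list. The set was selected on measured values. It takes the summits of uninduced Brg1-knockdown MEF on day 7 that had a summit within 250 bp in induced Brg1-knockdown MEF on day 7 and in induced MEF on day 7. A summit was dropped when one lay within 250 bp in uninduced MEF or in knockdown MEF on day 0. The regions are 674 of the 11188 summits of the uninduced knockdown day-7 list, and the 19 lists of the series hold 707465 summits in all (chromosomes 1 to 19 and X). Because the choice used the 3 day-7 and both day-0 lists, presence or absence in those 5 is not a result, and the other 14 lists carry the comparisons.

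Accessibility was mapped by ATAC-seq, in which the Tn5 transposase cuts and tags open DNA, in 34 samples of 17 groups with 2 samples each. Per the labels the MEF are iHA-Etv2 cells, which carry an inducible HA-tagged Etv2, an ETS-family factor of the blood and vessel lineages. Doxycycline (Dox) is the inducer. The groups used here are MEF with Brg1 knockdown and Dox on days 1, 2 and 7, MEF with Brg1 knockdown and no Dox on days 1, 2 and 7, MEF with Brg1 knockdown on day 0, MEF with Dox on days 1, 2 and 7, MEF with Dox on day 7 sorted as Flk1-positive, and MEF without Dox on day 0. Embryoid bodies (EB, aggregates of differentiating stem cells) at 12 h were labelled Dox and Flk1-positive, Dox, or no Dox. Brg1-floxed EB on day 4, all labelled Dox, were given 4-hydroxytamoxifen (4OHT) or not. Brg1, encoded by Smarca4, is the ATPase of the SWI/SNF chromatin remodelling complex. Uninduced MEF without knockdown on day 7 were not analysed here, so all 3 day-7 lists carry the knockdown, Dox or both, and no list shows culture time alone.

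Open chromatin in a fibroblast falls into promoters, which are usually open in most cell types, and distal elements, which differ more between cell types and states. In culture, fibroblasts pass through repeated division and can enter growth arrest, and distal elements can open or close along the way. A summit is the base of highest signal in a called peak or in a part of one, so a new summit can be a new open site or a shift of signal inside a site that was already open.

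The 3 lists that chose the regions are the shortest of the MEF lists, with 11188 summits in uninduced knockdown MEF, 13644 in induced knockdown MEF and 18418 in induced MEF on day 7. The day-0 lists held 36730 summits in knockdown MEF and 62028 in uninduced MEF. Each summit has a deposited score, the authors' q value as −log10. In the day-7 lists the 10 commonest score values covered 43.0% (uninduced knockdown), 46.5% (induced knockdown) and 39.5% (induced) of summits, against 22.7% and 21.8% in the knockdown and uninduced day-0 lists. Many day-7 summits therefore carry the same few scores. Each MEF list stands for both samples of its group, so shares below have no replicate error and no p-value, and their exact Clopper-Pearson 95% intervals cover counting error only. The lists of cells with and without knockdown also differ in how scores are written, with more than 6 significant digits in 0% of knockdown scores and in 27.6% to 52.1% of MEF scores without knockdown, so knockdown and processing cannot be told apart.

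Only 45 of the 674 regions (6.68%, interval 4.91 to 8.83%) lay within 1 kb of an end of a protein-coding gene, against 29% of the whole uninduced knockdown day-7 list. The share moved with the matching distance, to 17.6% at 100 bp and 1.23% at 500 bp. Of the 674 regions, 12 fell inside a tabulated promoter window, from 250 bases before to 50 after a gene's start. The windows of 3 are printed, each with the region upstream of the start and beside a summit already open on day 0. Pdcd10 encodes a scaffold protein whose human counterpart is mutated in cerebral cavernous malformations, Slc35f5 a solute carrier, and Ube2s a ubiquitin-conjugating enzyme of the anaphase-promoting complex. Capitals mark the region's summit and 10 bases on either side. Sequences are from RefSeq (GRCm38.p6), 5′ to 3′ on the strand of the gene.
Pdcd10 (chr3:75556803-75557102, minus strand): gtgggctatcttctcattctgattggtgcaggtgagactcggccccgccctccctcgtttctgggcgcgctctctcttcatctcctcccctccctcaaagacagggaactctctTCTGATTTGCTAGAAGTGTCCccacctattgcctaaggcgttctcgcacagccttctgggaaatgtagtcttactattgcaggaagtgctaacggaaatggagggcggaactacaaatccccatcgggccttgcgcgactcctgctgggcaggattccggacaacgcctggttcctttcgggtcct
Slc35f5 (chr1:125560345-125560644, plus strand): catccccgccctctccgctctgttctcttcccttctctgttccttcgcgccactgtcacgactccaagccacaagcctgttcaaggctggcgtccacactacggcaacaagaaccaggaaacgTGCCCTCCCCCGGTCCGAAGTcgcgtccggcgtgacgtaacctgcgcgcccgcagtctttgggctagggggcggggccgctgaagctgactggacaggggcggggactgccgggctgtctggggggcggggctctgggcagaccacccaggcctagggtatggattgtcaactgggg
Ube2s (chr7:4812291-4812590, minus strand): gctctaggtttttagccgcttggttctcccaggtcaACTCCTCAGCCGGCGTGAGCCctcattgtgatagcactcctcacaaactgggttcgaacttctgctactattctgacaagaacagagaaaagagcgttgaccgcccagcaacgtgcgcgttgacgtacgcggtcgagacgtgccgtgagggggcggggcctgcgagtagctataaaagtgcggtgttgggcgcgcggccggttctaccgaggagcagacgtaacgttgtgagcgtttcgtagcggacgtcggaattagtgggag

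The Pdcd10 summit lay 126 bases before the start and had a score of 14.7, the highest of the 12. Its nearest day-0 summits were 320 bp away in knockdown MEF and 343 bp away in uninduced MEF. The Slc35f5 summit lay 117 bases before the start with a score of 6.90, and its nearest day-0 summits were 274 bp (knockdown) and 252 bp (uninduced) away, just past the 250 bp limit. The Ube2s summit lay 204 bases before the start with a score of 5.10, and day-0 summits were 277 bp (knockdown) and 291 bp (uninduced) away. These 3 promoters were thus already open on day 0, with their called summit at another base. In Nuak1 the summit lay 13 bases after the start and in Otud5 2 bases after the earlier of its tabulated starts, and for A530040E14Rik a day-0 summit lay 282 bp away in knockdown MEF but 6878 bp away in uninduced MEF. The other promoters in this set were those of A530040E14Rik, Cep170, Fbxo8, Tbpl1 (a TBP-like transcription factor), Cactin, Nuak1 (an AMPK-related kinase), Gm51893, Eif1 (a translation initiation factor) and Otud5 (a deubiquitinase).

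The promoter windows resembled other open promoters in composition. The median GC content was 63.7% over the 13 windows that hold a region (Otud5 has 2), against 64.0% over the 1251 windows that hold a summit shared by day 7 and day 0 and 53% over all 32619 windows. The ETS core GGAAGT, searched on both strands, occurred in 5 of 13 windows (38.5%, interval 13.9 to 68.4%), against 31.9% of the shared windows and 23.9% of all windows. The AP-1 motif TGANTCA, searched on both strands, occurred in 1 of 13 (7.69%, interval 0.195 to 36%), that of Eif1, against 3.44% of the shared windows and 7.85% of all windows. Both intervals hold both comparison shares.

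The regions fell into 2 kinds by their distance from day-0 open chromatin. A day-0 summit lay between 251 bp and 1 kb away for 377 regions (55.9%), with a median distance of 346 bp, and these are called near regions below. The other 297 (44.1%) had none within 1 kb, with a median distance of 26942 bp, and are called far regions. Of all 674, 121 lay at most 300 bp from a day-0 summit, 170 between 300 and 500 bp, 86 between 500 bp and 1 kb, 43 between 1 and 5 kb, 81 between 5 and 20 kb, and 173 farther. The 121 regions just inside the limit (251 to 300 bp) had a median score of 7.55, and the 214 summits of the 3 day-7 lists just outside it (200 to 250 bp) had 5.72. The split at 1 kb was chosen after these distances were seen.

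**Figure D1:**
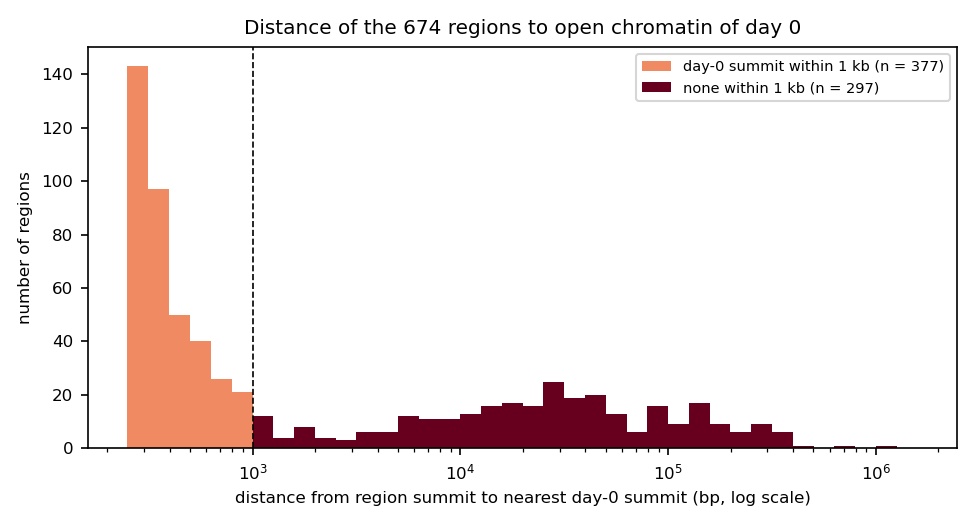
Number of regions (y axis) by distance in bp from the region's summit to the nearest summit of either day-0 list (x axis, log scale), with bins of equal log width on each side of the dashed line at 1 kb. Near regions (orange, n = 377) crowd against the 250 bp limit, and far regions (dark red, n = 297) spread around a median of 26942 bp.

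Near regions were mostly parts of peaks that were already open. In 222 of the 377 (58.9%), another summit of the same deposited day-7 peak lay within 250 bp of a day-0 summit. The same held for 9 of the 297 far regions (3.03%). Near regions also had the higher scores within the uninduced knockdown day-7 list, with a median of 6.35, against 3.93 for far regions and 4.52 for the whole list. Summits shared with both day-0 lists had a median of 7.01. A score of at least 20 was reached by 54 near regions and by 1 far region.

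The far region with that score lay inside Hira, the gene of a histone H3.3 chaperone, at chr16:18958496 (mm10), 7974 bp from the nearest day-0 summit. It scored 26.7 in uninduced knockdown, 22.8 in induced knockdown and 21.5 in induced MEF on day 7. It was also called in 6 of the 7 other MEF lists, with 8.32 and 11.4 in uninduced knockdown MEF on days 1 and 2, and 37.2 and 18.2 in induced MEF on days 1 and 2. The far region in Srsf4, which encodes a splicing factor, at chr4:131896453, scored 11.3, 27.7 and 21.5 in the same 3 day-7 lists and was likewise called in 6 other MEF lists. By contrast, the far region at chrX:46404079, 73734 bp from Actrt1, scored 10.5, 3.84 and 2.38 and was in none of the other 14 lists. These 3 were chosen after their values were seen, as far regions scoring over 10.

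The name of a day-7 set was only partly borne out by the lists of days 1 and 2. Of the 674 regions, 561 were already called in at least 1 of the 6 MEF lists of days 1 and 2, and 113 (16.8%, interval 14 to 19.8%) in none. The corresponding share of the whole uninduced knockdown day-7 list was 11.9% (11.3 to 12.5%). Of the 1239 summits absent on day 0 and in neither other day-7 list, 53.5% (50.7 to 56.3%) were in none of these 6. The share was 30.0% (25.7 to 34.5%) of the 444 absent on day 0 and shared with induced MEF on day 7 only. It was 30.7% (27.5 to 34.1%) of the 781 shared with induced knockdown MEF on day 7 only. Among summits absent on day 0, the regions thus had the lowest share. Among the 113 regions, 35 were called in Flk1-positive MEF on day 7. Of all 674 regions, 64 were in none of the other 14 lists and 610 (90.5%) in at least 1, against 91.9% of the whole list. All 7 of the other MEF lists held 11 regions (1.63%), against 32.98% of the whole list.

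In uninduced knockdown MEF, the cells whose day-7 list defines the set, 142 regions (21.1%, interval 18 to 24.3%) were called on day 1 and 191 (28.3%, 25.0 to 31.9%) on day 2. The whole list had 57.6% and 62.8% on those days. The 2 intervals of the regions do not overlap, but the day-2 list is also longer, with 44493 summits against 35635 on day 1. In induced knockdown MEF the shares were 29.4% (26.0 to 33%) on day 1 and 24.2% (21.0 to 27.6%) on day 2, and the whole list had 60.6% and 57.1%. All 4 shares of the regions lie far below those of the whole list, most of which was open on day 0. The rule dropped such summits, so this gap follows in part from the selection. The 1239 summits absent on day 0 and in neither other day-7 list had lower shares than the regions. They had 10.8% and 18.5% in uninduced knockdown MEF on days 1 and 2, and 12.2% and 8.80% in induced knockdown MEF. Presence in the other day-7 lists was itself part of the selection. Summits shared with 1 other day-7 list are described below.

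At the deposited list lengths, induced MEF without knockdown held more of the regions than the knockdown lists. They were called in 301 cases (44.7%, interval 40.9 to 48.5%) on day 1 and in 372 (55.2%, 51.3 to 59.0%) on day 2, against 63.4% and 64.8% of the whole list. The day-2 share was higher although the day-2 list was shorter, with 26217 summits against 50015 on day 1. In every setting tried the day-2 share stayed above the day-1 share. Their intervals overlapped at 100 bp matching (43.5% and 40.6%) and with scores of at least 5 (55.25% and 50.5%). The comparisons with the knockdown lists and with the whole list depend on the setting. With every list held to its 11188 best summits, where the rule gave 1742 regions, induced MEF had 16.2% on day 1, below the 27.7% of induced knockdown MEF, and 51.5% on day 2, above the 45.0% of the whole list. With 100 bp matching the day-2 share was 43.5%, against 41.7% of the whole list. Sorted Flk1-positive cells of day 7 held 305 (45.3%, 41.4 to 49.1%), against 60.9% of the whole list. In total 475 regions (70.5%, 66.9 to 73.9%) were called in induced MEF on day 1 or 2, against 74.7% of the whole list. Induced knockdown MEF on those days held 278 (41.2%, 37.5 to 45.1%), against 69.6% of the whole list. Uninduced knockdown MEF held 238 (35.3%, 31.7 to 39.1%), also against 69.6%.

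**Figure D2:**
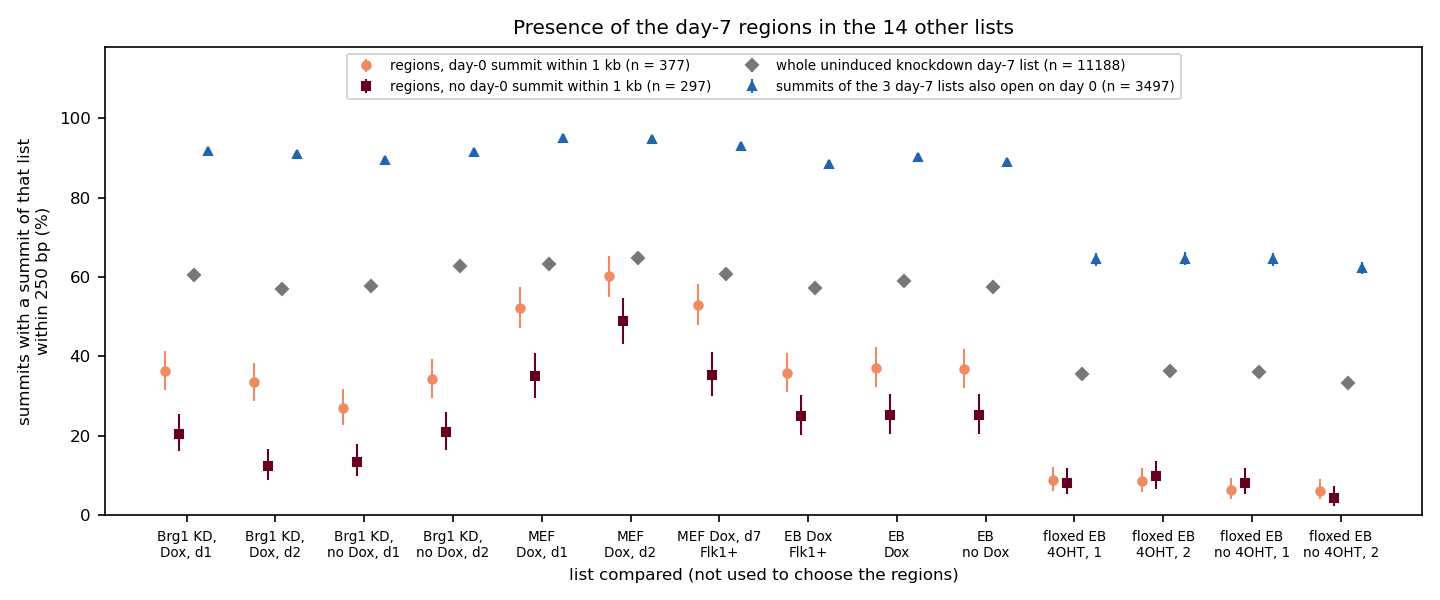
Share of summits in % (y axis) with a summit within 250 bp in each of the 14 lists not used to choose the regions (x axis), with exact 95% intervals for counting error. Near regions (orange circles) lie above far regions (dark red squares) in all 10 MEF and 12 h EB lists, both below the whole uninduced knockdown day-7 list (grey diamonds) and the summits shared with both day-0 lists (blue triangles).

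Among summits absent on day 0, 44.1% (39.5 to 48.9%) of the 444 shared with induced MEF on day 7 only were called in induced MEF on day 2, against 26.8% (23.7 to 30.0%) of the 781 shared with induced knockdown MEF on day 7 only. In uninduced knockdown MEF on day 2 the order was the other way, with 19.4% (15.8 to 23.4%) of the 444 and 28.9% (25.8 to 32.3%) of the 781. The 674 regions, which are in both day-7 lists, had 55.2% and 28.3%. The 444 and the 781 were split by presence in day-7 lists of the same series as the lists compared here. The order between them may therefore follow in part from that split, which was not tested. Induced knockdown MEF on day 2 showed no such order, with 18.7% (15.2 to 22.6%) of the 444 and 18.8% (16.1 to 21.7%) of the 781. On day 1 the intervals also overlapped in the knockdown lists. The shares were 22.7% and 27.3% in induced knockdown MEF and 16.4% and 20.6% in uninduced knockdown MEF. In induced MEF on day 1 the intervals did not overlap. The 444 had 36.9% (32.4 to 41.6%) there and the 781 had 21.9% (19.04 to 24.96%). Nor did they overlap in Flk1-positive MEF on day 7, with 36.3% (31.8 to 40.9%) and 21.1% (18.3 to 24.2%).

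Far regions were rarer than near ones in every MEF list of days 1 and 2. In induced MEF on day 2 they were called in 48.8% of 297, compared with 60.2% of 377 near regions. In uninduced knockdown MEF on day 2 the shares were 20.9% (far) and 34.2% (near), and in induced knockdown MEF on day 2 they were 12.5% (far) and 33.4% (near). No day-1 or day-2 MEF list held 69 of the far regions (23.2%, interval 18.5 to 28.5%) and 44 of the near regions (11.7%, 8.61 to 15.3%).

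Many regions were also open outside the fibroblast lineage. EB at 12 h held 209 of the regions (31.0%, interval 27.5 to 34.7%) when induced and Flk1-positive, 215 (31.9%, 28.4 to 35.6%) when induced and unsorted, and 214 (31.8%, 28.2 to 35.4%) when uninduced. The whole list had 57.2%, 59% and 57.6% in the same order. Each EB group is 1 list, so the groups were not tested against each other. In Brg1-floxed EB on day 4, 8.46% and 9.05% of the regions were called in the 2 samples given 4OHT, against 7.12% and 5.34% in the 2 samples without it. The whole list had 35.4% and 36.4% with 4OHT and 35.9% and 33.2% without. Both 4OHT samples lie above both others for the regions (means 8.75% ± 0.420 and 6.23% ± 1.26, SD, n = 2 each), but an exact two-sided permutation test of 2 against 2 samples cannot go below p = 0.333. At equal list lengths, where the rule gave a different set of 1742 regions, the shares were 10.6% and 9.76% with 4OHT and 2.99% and 2.53% without. Shares of the whole list in floxed EB were not computed at that setting. Whether the wider gap is particular to the regions was therefore not tested.

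The regions open in most lists were at distal sites with strong scores in EB. The region at chr3:5435880, 20019 bp from Zfhx4, which encodes a zinc-finger homeobox protein, was the single one called in all 14 other lists. Its scores were 195 and 115 in induced EB (unsorted and Flk1-positive) and 236 in uninduced EB, compared with 9.07, 7.03 and 8.47 in uninduced knockdown, induced knockdown and induced MEF on day 7. The median scores of these lists were 12.2, 9.35 and 12.1 in EB and 4.52, 5.05 and 5.80 in MEF, in the same order. Because the score grows with depth, scores of EB and MEF, here and below, do not compare how open a region was. The region at chr2:47642201, 1171908 bp from the nearest protein-coding gene, Acvr2a, was in 13 lists and scored 185 and 90.5 in induced EB and 243 in uninduced EB. Both had a day-0 summit in knockdown MEF close by, 262 and 276 bp away. Another 4 regions were in 12 lists each. Their nearest genes were Khdrbs2, Kcnt2, Mup10 and F8, the gene of coagulation factor VIII, and the F8 region lay inside its gene.

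Most regions lay far from genes. Outside annotated genes and over 1 kb from an end of a protein-coding gene were 398 (59.1%, interval 55.2 to 62.8%), against 40.7% of the whole list. The median distance to the nearest end of a protein-coding gene was 48822 bp for the regions, 17394 bp for the whole list and 984 bp for the 3497 summits shared with both day-0 lists. Near regions lay within 1 kb of a gene end in 43 of 377 cases (11.4%, 8.38 to 15.1%), and far regions in 2 of 297 (0.673%, 0.0817 to 2.41%). The other summits absent on day 0 were similar, with 4.87% (3.47 to 6.62%) of those shared with induced knockdown MEF only and 7.02% (5.66 to 8.59%) of those in neither other day-7 list. Those shared with induced MEF only had a higher share, 14.2% (11.1 to 17.8%). A low share at gene ends is therefore common to summits absent on day 0, and the 1340 summits missing from 1 of the 2 day-0 lists also had 8.96% (7.48 to 10.6%).

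**Figure D3:**
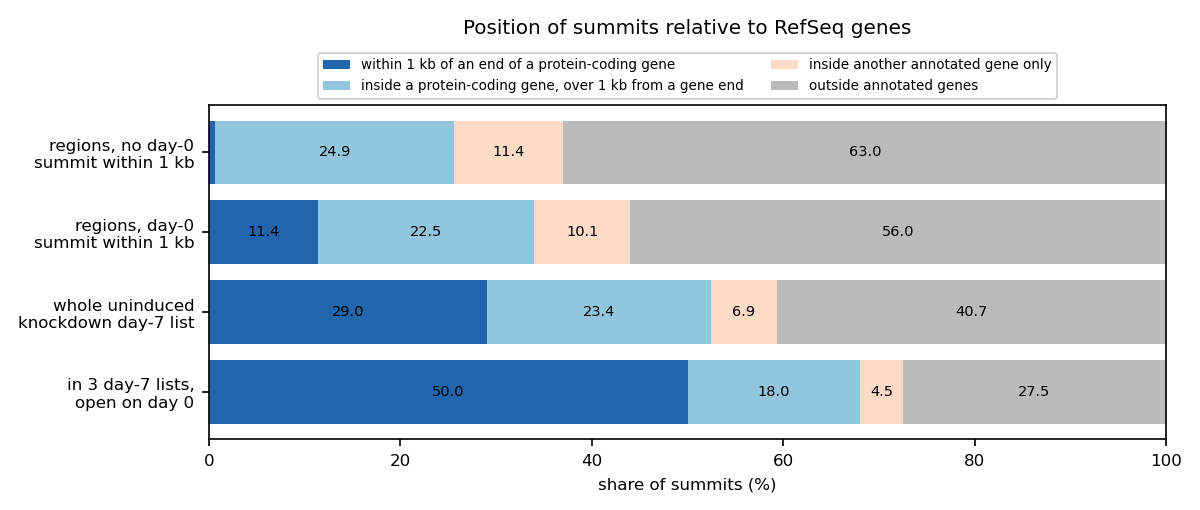
Share of summits in % (x axis) by position relative to RefSeq genes, for far regions, near regions, the whole uninduced knockdown day-7 list and the 3497 summits shared with both day-0 lists (rows). The blue part, within 1 kb of an end of a protein-coding gene, covers 0.673% of far regions and 50.04% of the shared summits.

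Few genes of the pathway and cell-type lists had a region close by, and the same was true of all protein-coding genes. Over the whole genome 696 of 21627 protein-coding genes (3.22%) had a region within 50 kb of the gene interval. Of 344 genes in 20 lists of pathways and cell types, 5 did, 1 in each of 5 lists. They were Postn (fibroblast list, 1 of 25 genes), Tead4 (TEAD and YAP list, 1 of 15), Gadd45a (growth arrest and senescence, 1 of 18), Cd36 (adipogenic, 1 of 13) and Dcx (neural, 1 of 14). In the other 15 lists no gene had a region, among them AP-1 and immediate early genes (0 of 18), contractile and actin genes (0 of 20), TGF-beta and BMP (0 of 20), matrix remodelling (0 of 18), inflammatory and interferon genes (0 of 22), endothelial (0 of 25), haematopoietic (0 of 15), macrophage (0 of 12), SWI/SNF (0 of 18) and housekeeping genes (0 of 20). With lists of this size a share as high as 18.5% of a list of 18 genes is within the interval of 0 found. The genome share of 3.22% lies inside the interval of each of the 20 lists. As a check of the cells, genes with any summit of the uninduced knockdown day-7 list within 50 kb were counted. They were 7 of the 25 fibroblast genes (28.0%, interval 12.1 to 49.4%). The share of all protein-coding genes, 46.7%, lies inside that interval. Shares were higher for epithelial (75%), osteogenic and chondrogenic (64.3%), neural (50%), pluripotency (42.9%), macrophage and skeletal muscle (41.7% each) and endothelial genes (36%). They were lower for haematopoietic (20%) and adipogenic genes (15.4%). The check thus did not single out fibroblast genes.

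The 5 genes differed in where else their region was open. The region near Postn, which encodes the matrix protein periostin, lay 13069 bp from the gene at chr3:54346198 and scored 2.85, 3.84 and 3.99 in uninduced knockdown, induced knockdown and induced MEF on day 7. Apart from those it was called in Flk1-positive MEF on day 7 (7.42) and in induced MEF on day 2 (4.40), and a day-0 summit lay 1030 bp away. The region near Tead4, which encodes a partner of the growth regulator YAP, at chr6:128200467, scored 184 in induced and 176 in uninduced EB and 40.2 in induced MEF on day 2, against 3.66, 3.74 and 13.5 in the 3 day-7 lists. In floxed EB it scored 55.5 and 64.8 with 4OHT and 52.3 and 23.6 without. It was absent from the MEF lists of day 1, with and without knockdown, and from the knockdown lists of day 2. Day-0 summits lay 292 bp (knockdown) and 282 bp (uninduced) away.

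Inside Cd36, the gene of a fatty acid receptor, the region at chr5:17799681 scored 3.38, 8.45 and 1.42 in the same order of day-7 lists, with the nearest day-0 summit 13030 bp away. It scored 105 and 56.2 in induced EB (unsorted and Flk1-positive) and 106 in uninduced EB. In floxed EB it was called in both samples given 4OHT (13.1 and 17.1) and in neither sample without it. The region at chrX:143957691, near Dcx, a gene of migrating neurons, scored 5.72, 9.18 and 17.1 on day 7 and was called in 5 other MEF lists. Within 50 kb of Gadd45a, a stress-induced growth arrest gene, were 2 regions, at chr6:67008260 and chr6:67008473, both inside Gng12, which encodes a G protein subunit. They scored 64.5 and 69.6 in uninduced knockdown MEF, and both matched 1 summit of score 55.0 in induced knockdown MEF and 1 of 42.0 in induced MEF, so they are not independent. Day-0 summits lay 267 and 480 bp away.

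The top score, 1971, was at chr1:24613491, 25569 bp from Col19a1, with 2548 in induced knockdown and 2755 in induced MEF on day 7. It was in none of the other 7 MEF lists, but day-0 summits lay 548 bp (knockdown) and 556 bp (uninduced) away. It also scored 3860 and 4936 in induced EB (Flk1-positive and unsorted) and between 1783 and 2841 in floxed EB. A second region, at chr1:24612157, scored 1260 and was called in all 7 other MEF lists. Mitochondrial and blacklist handling is not given, and whether either score reflects open chromatin was not tested. Next came 80.0 near Gm21119, 69.6 and 64.5 in Gng12, 59.8 near Cyp8b1, 55.7 in the 5S rRNA gene array described below, 55.6 and 54.6 in Thada and 52.1 in Tmem267. In Eef2, which encodes translation elongation factor 2, a region scored 43.3, 34.6 and 40.8 in uninduced knockdown, induced knockdown and induced MEF on day 7, with 1.36 and 32.3 in induced MEF on days 1 and 2 and no call elsewhere. All of the 15 highest-scoring regions had a day-0 summit within 1 kb, and so did the best region of each of the 15 genes nearest to the highest scores. The remaining ones of these 15 genes were Rhou and Gas8 (both beside the 5S array), Smc2, 4930444P10Rik, Vmn1r77, Mid1, Flg2 and Magee2.

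Clusters accounted for 64 regions (9.50%), in 9 groups of 3 or more with gaps of at most 50 kb. Only 13 genes had 3 or more regions within 50 kb, and 12 of them lie by these clusters. Gas8, Dbndd1, Afg3l1 and Rhou flank the 5S array, Mid1 lies beside a group on the X chromosome, 4930444P10Rik, Rdh10 and Rpl7 share a group, Pfkp and Pitrm1 share another, and Flg2 and Sfi1 each lie by one more. Col19a1 and Gadd45a were named from a tie of 69 genes with 2 regions each, by their summed score. Dock2, which encodes a guanine nucleotide exchange factor of blood cells, was the remaining one, with 3 far regions, at chr11:34544420, chr11:34544581 and chr11:34682949. Their scores were 1.41, 3.93 and 3.38, and none of the 14 other lists held any of them.

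The largest cluster lay in Snhg14, the long host transcript of tandem small nucleolar RNA genes in the imprinted Prader-Willi region, which in mouse is transcribed from the paternal copy, chiefly in neurons. It held 24 regions between chr7:59430170 and chr7:59615729, of which 15 were far regions, over 93 annotated snoRNA genes. Their scores ran between 1.71 and 7.76. In the whole Snhg14 interval (chr7:59272737-60450177) induced knockdown MEF had 22 summits on day 1, 15 on day 2 and 148 on day 7. Uninduced knockdown MEF had 15 on day 1, 25 on day 2 and 92 on day 7, and knockdown MEF on day 0 had 17. The 2 day-7 counts are the highest of the knockdown series although their lists are the shortest.

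Without knockdown the locus was more often called from the start. There were 48 Snhg14 summits in uninduced MEF on day 0, then 67, 83 and 124 in induced MEF on days 1, 2 and 7, and 81 in Flk1-positive cells. Per 10000 summits of the list, the day-7 lists had 108 (induced knockdown), 82.2 (uninduced knockdown) and 67.3 (induced MEF), against 4.63 in knockdown and 7.74 in uninduced MEF on day 0. EB at 12 h had 76 (induced Flk1-positive), 65 (induced) and 79 (uninduced), and floxed EB had 5 and 4 with 4OHT and 8 and 2 without. The locus was singled out because regions cluster there, so these counts describe it and test nothing. Reads from near-identical gene copies can be assigned to any of them, so the position of each summit within the array is uncertain.

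**Figure D4:**
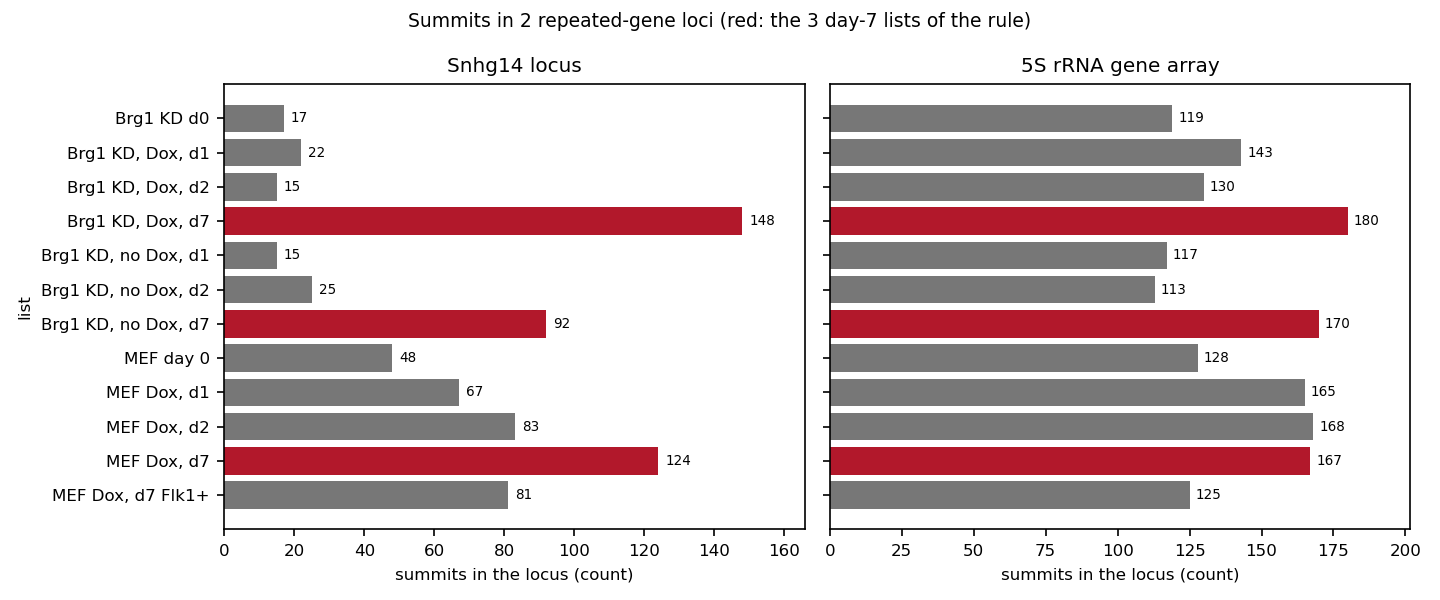
Number of summits per list (x axis, bars) in the Snhg14 interval (left panel) and in the 5S rRNA gene array (right panel) for the 12 MEF lists (rows), each knockdown or induction series running by day, with the 3 day-7 lists of the selection in red. Snhg14 counts are 148, 92 and 124 on day 7 and between 15 and 83 in the other 9 lists, whereas the 5S array holds between 113 and 180 summits in all 12.

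The second cluster held 15 regions between chr8:123542693 and chr8:123640528, over 45 annotated 5S rRNA genes, which encode an RNA of the large ribosomal subunit, and 14 of the 15 were near regions. Summits in the array numbered 143, 130 and 180 on days 1, 2 and 7 in induced knockdown MEF, 117, 113 and 170 in uninduced knockdown MEF, and 165, 168 and 167 in induced MEF. On day 0 there were 119 in knockdown and 128 in uninduced MEF. Per 10000 summits of the list, the array had 132 (induced knockdown), 152 (uninduced knockdown) and 90.7 (induced MEF) on day 7, against 32.4 in knockdown and 20.6 in uninduced MEF on day 0. The day-7 lists are the shortest, which by itself raises such a rate. This array too was singled out because regions cluster there, so its counts and rates test nothing. A group of 6 regions beyond the end of Mid1 on the X chromosome (169993101 to 170007649) also lay where all MEF lists had summits, 25 in uninduced knockdown MEF on day 7 and 15 in knockdown MEF on day 0. Smaller groups lay in 4930444P10Rik, Flg2 (a filaggrin-family gene of skin), Pfkp (a phosphofructokinase of glycolysis), by the pseudogene Pisd-ps1, and at chr6:3133654-3139272 and chr1:84994266-85029351.

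The X chromosome held 60 regions, 8.90% (interval 6.86 to 11.3%), against 5.23% of the whole list. It held 3.20% (2.64 to 3.84%) of the summits shared with both day-0 lists. Near and far regions were alike, with 8.49% (5.88 to 11.8%) and 9.43% (6.36 to 13.3%). By list, X summits made up 5.75% in induced knockdown, 5.23% in uninduced knockdown and 4.08% in induced MEF on day 7, against 2.86% in knockdown and 2.71% in uninduced MEF on day 0. Chromosome 7 also had a larger share of the regions (7.72%) than of the list (5.28%), and it carries the Snhg14 cluster. Chromosome 8 had a smaller one, 6.68% against 8.85%.

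**Figure D5:**
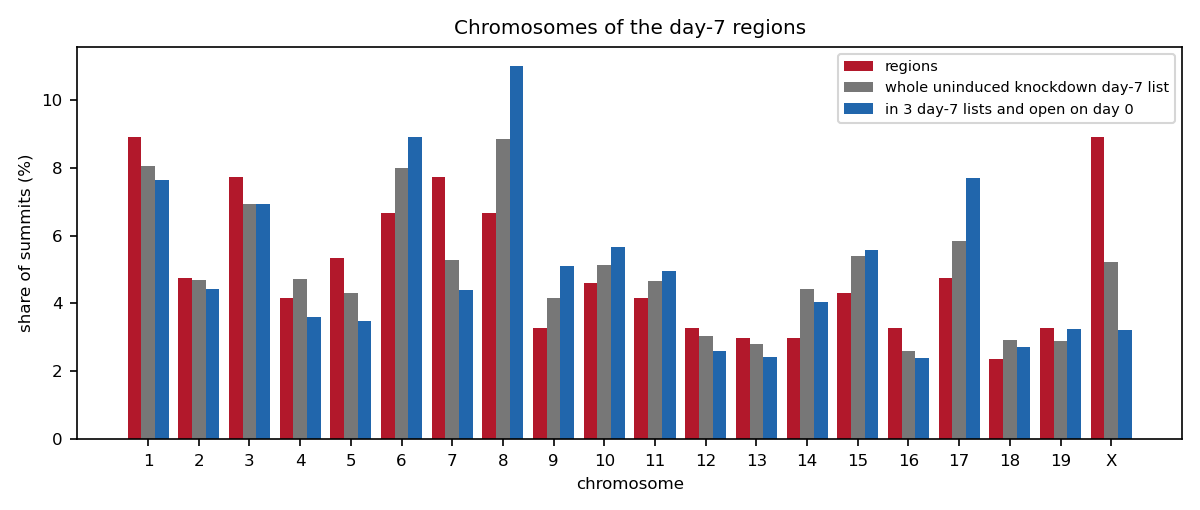
Share of summits in % (y axis) on each chromosome (x axis) for the 674 regions (red), the whole uninduced knockdown day-7 list (grey) and the 3497 summits shared with both day-0 lists (blue). On the X chromosome the shares are 8.90%, 5.23% and 3.20%.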

How the data were processed

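ATAC-seq summit lists of 34 samples were used. Per the submitters' processing notes, the tools were Bowtie2 2.2.4, MACS2 and HOMER, on the mm10 build. The deposited score is the −log10 of the authors' q value, above 1.30 in all lists. It grows with depth. Duplicate, mitochondrial, shift and blacklist handling is not given in the sources used here. For 15 groups the labels of both samples name 1 list, and the 4 floxed samples have a list each. Read depth was not analysed here, and the number of summits, 11188 to 85498 per list, is its only stand-in.

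Analysis ran in Python 3.11.15 (scipy 1.17.1, pandas 2.3.3, numpy 2.4.6, figures with matplotlib 3.10.9). Matching was tested on simulated lists. Genes came from a RefSeq table of GRCm38.p6 without strand, so either gene end within 1 kb was counted. Promoter windows covered 26794 genes and lacked many others. The regions, gene lists and motifs were chosen with earlier results of these data known. Genes were named as the 15 nearest to the highest scores, with 1 region per gene, as the 15 with most regions within 50 kb, and as list genes with a region within 50 kb. The 5 regions in most lists were added, and since 4 tie at 12 lists, the Kcnt2 region was added after its value was seen. Motifs over the regions themselves were not run.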

Additional observations from a re-analysis of the deposited data

How the results depend on the processing

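The number of regions was 579 at 100 bp matching, 653 at 500 bp, 400 with scores of at least 5, 1742 with every list held to its 11188 best summits, and 297 with no day-0 summit within 1 kb (chosen after seeing the data). The share at gene ends was 17.6%, 1.23%, 3.25%, 2.87% and 0.673% in the same settings, so it depends on the matching limit and on the other settings. At gene ends the whole list had 19.3% with scores of at least 5 and 29.0% in the rest of these settings. At 100 bp the shares in uninduced knockdown MEF on day 1, induced MEF on day 2 and Flk1-positive MEF were 24.9%, 43.5% and 35.8%. At 500 bp they were 15.8%, 60.9% and 51.9%, with 22.4% in uninduced knockdown MEF on day 2. The whole list at 500 bp had 75.9% in induced MEF and 74.4% in uninduced knockdown MEF on day 2. At equal list lengths it had 38.7% in uninduced knockdown MEF on day 2. Whole-list shares in the remaining lists are not given at changed matching or list length. With equal list lengths induced knockdown MEF on day 2 had 6.89%, uninduced knockdown MEF had 9.47% (day 1) and 15.5% (day 2), Flk1-positive MEF 30.6% and uninduced EB 22.2%. With no day-0 summit within 1 kb the last 4 were 13.5%, 20.9%, 35.4% and 25.3%, and induced MEF on day 2 had 48.8%. The cause was not tested. Scores of at least 2, regions within 1 kb joined (635) and leaving out clustered regions (610; chosen after seeing the data) moved no share in the 5 MEF and EB lists named above by more than its counting interval. Counting gene ends within 2.5 kb gave 8.75%. The difference between floxed EB with and without 4OHT was 2.52 percentage points, and 1.63 to 3.41 leaving out 1 sample at a time. No paired analysis was possible because each MEF list and each 12 h EB list stands for both samples of its group, and the floxed EB difference comes from no test. Motif shares over the regions, and the narrower motif window, were not run because they need a genome.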
